A study of Mus musculus with 16 samples.

Results

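The collagens that build the fibrils of the fetal lung (Col1a1, Col1a2, Col3a1, Col5a1 and Col5a2), the chains of the beaded microfibrils of collagen VI (Col6a1, Col6a2 and Col6a3), the collagen chaperone Serpinh1 and the lysyl hydroxylase Plod2 were followed in lungs of mice with and without T1α. T1α (Pdpn) is a membrane protein of alveolar type I cells. A probe set of the array was taken where the platform's annotation gave it 1 symbol and that symbol was a member. Of the 10 genes, 9 had such a probe set, with 15 probe sets among the 12488 on the array, and no probe set of 1 symbol was given for Plod2. Fibrillar collagens had 10 probe sets, collagen VI had 4 and Serpinh1 had 1. T1α(-/-) lungs, which carry the null mutation in every cell, and T1α(+/+) lungs, the wild type controls, came from crosses of heterozygous mice. Each genotype was measured on fetal day 18.5 (E18.5), with 5 arrays, and at term, with 3 arrays taken just after delivery, for 16 arrays of 1 lung each. The E18.5 replicates are A to E for (-/-) and I to M for (+/+), and those of term are F to H for (-/-) and N to P for (+/+). The labels do not say which pups shared a litter, so p-values measure the spread between these arrays.

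A fibrillar collagen molecule is a rope of 3 chains, and collagen I holds 2 chains made from Col1a1 and 1 made from Col1a2. Collagen III is made of Col3a1 chains only, and collagen V, which sets the start and width of fibrils, joins chains of Col5a1 and Col5a2. Collagen VI, built from Col6a1, Col6a2 and Col6a3 chains, forms thin beaded filaments around cells and near basement membranes. Serpinh1 (Hsp47) holds the collagen rope together in the endoplasmic reticulum, and Plod2 modifies lysines that later form cross-links. In the developing lung these genes are expressed mainly by fibroblasts and smooth muscle of the interstitium, the layer that thins as alveolar sacs form.

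Between E18.5 and term, Col1a2 and Col6a3 fell in lungs of both genotypes, to about the same extent on both Col1a2 probe sets. Their partner chains did not pass the test in either genotype: Col1a1 for collagen I, and Col6a2 and the brighter probe set of Col6a1 for collagen VI. The brighter Col1a1 probe set came near it in (-/-) lungs (log2 fold change -0.63, adjusted p = 0.0538, limma), and the other did not (0.01). Whether the chains differ in their change over time was not tested. Between the genotypes, no member passed the test at E18.5, where 0.034% of all probe sets tested did, or at term, where 0% did. The deleted gene Pdpn thus did not pass at term either. The probe sets of 1 gene did not always move alike. For Col6a1, 1 probe set passed and rose over time in (+/+) lungs while the other did not pass. Its ratio was the 1 of 28 unadjusted tests of probe set pairs with an exact permutation p under 0.05, near the chance number. The probe sets of Col1a2, which fell together over time, varied in opposite directions among arrays of the same group.

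Signals are the authors' MAS 5.0 values on a linear scale, and they compare arrays for 1 probe set, not 1 probe set with another. On each array the mean signal, without the lowest and highest 2%, was 99.9797 to 99.9887, and the median was 35.8 to 61. Replicate I of (+/+) E18.5 had the highest median. Its bacterial controls of Dap, Lys, Phe, Thr and Trp averaged 35.3, against 3.58 to 11.1 on the other arrays. The study does not list these controls as added to the samples. The E18.5 signal of Pdpn was 1.4 to 21.2 on (-/-) and 60.2 to 135.5 on (+/+) arrays. On term arrays it was 8.6 to 30 for (-/-) and 39.7 to 214.9 for (+/+), so no (-/-) array overlapped a (+/+) array of its time. The ratio of 3' to 5' GAPDH signal, a measure of RNA quality, was 1.20 ± 0.28 (SD, n = 10) at E18.5 and 1.64 ± 0.83 (SD, n = 6) at term. Replicate M of (+/+) E18.5 stood apart in its heart and skeletal muscle markers, which summed to 16878, and the results without it are given with the markers. All 15 member probe sets passed the filter on low signals in each comparison.

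**Figure D1:**
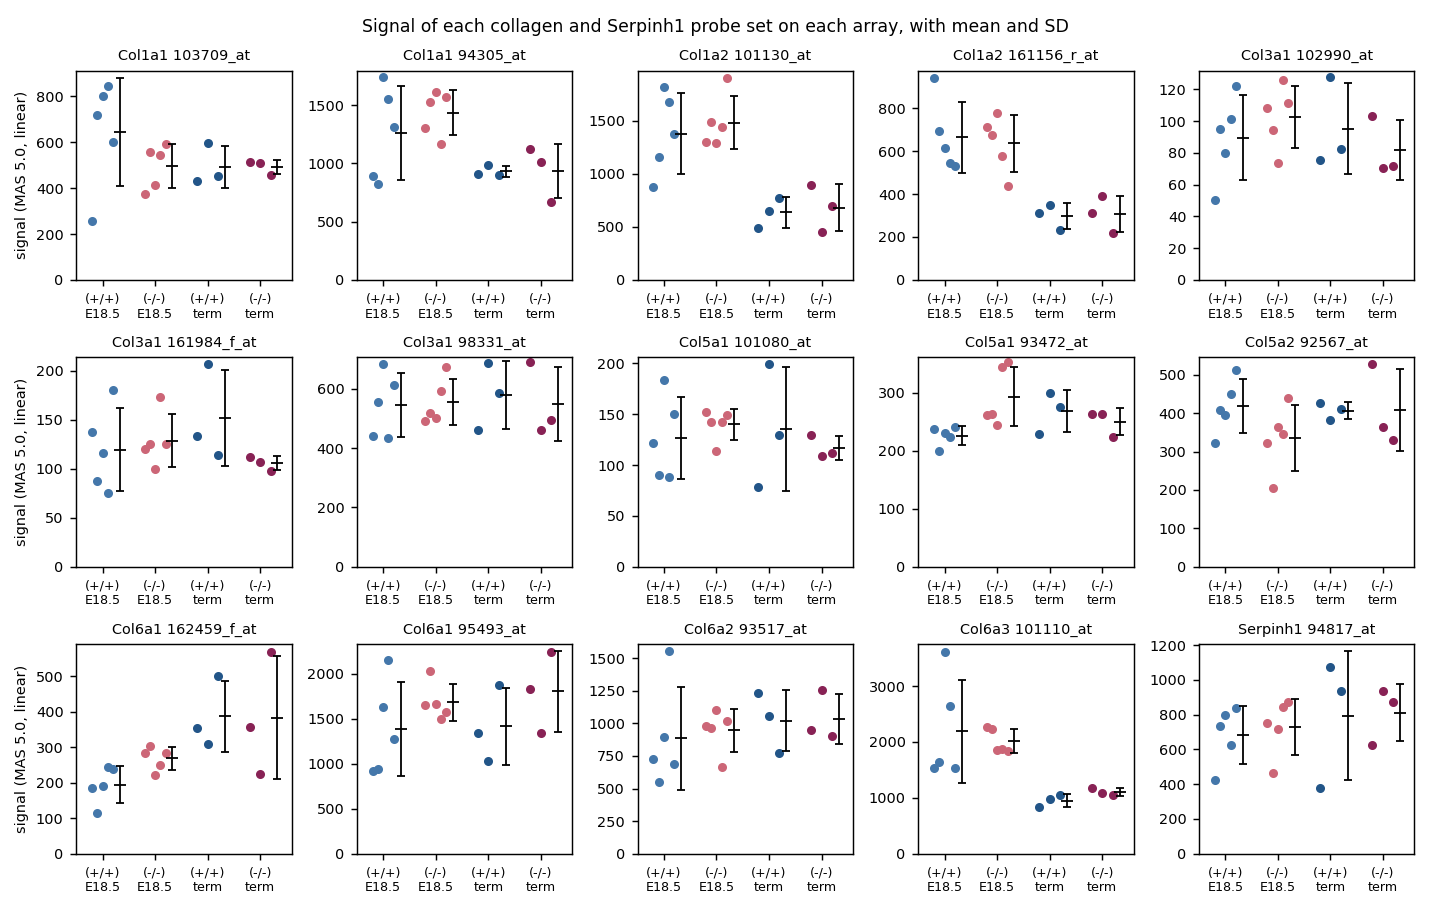
Signal of each of the 15 probe sets (vertical axes, linear MAS 5.0 signal from 0) on each of the 16 arrays in the 4 groups, with 1 point an array and the bar showing mean ± SD. Both Col1a2 probe sets and Col6a3 sit lower on all term arrays than on all E18.5 arrays of the same genotype, while the points of the genotypes overlap at each time in most panels.

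Col1a2 encodes the second chain type of collagen I. On its brighter probe set, 101130_at, the signals of (+/+) replicates I to M were 872.2, 1154.6, 1815.6, 1682.3 and 1371.4 at E18.5, and those of N to P were 487.0, 654.1 and 776.5 at term. In (-/-) lungs they were 1299.4, 1489.2, 1294.1, 1437.5 and 1900.9 for A to E at E18.5, and 898.6, 449.2 and 699.5 for F to H at term. Every term array was below every E18.5 array of its genotype, and replicate I was the lowest E18.5 array. The mean signal went from 1379 ± 384 (SD, n = 5) to 639 ± 145 (SD, n = 3) in (+/+), which is 2.16-fold lower, and from 1484 ± 248 (SD, n = 5) to 682 ± 225 (SD, n = 3) in (-/-), which is 2.17-fold lower. With limma, the log2 fold change of the signal + 16 was -1.07 (SE 0.31, adjusted p = 0.0245) in (+/+) and -1.14 (SE 0.25, adjusted p = 0.00602) in (-/-) lungs.

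The other Col1a2 probe set, 161156_r_at, whose suffix marks probes picked under relaxed design rules, also fell. It measured 938.8, 692.2, 612.3, 546.8 and 531.2 in (+/+) and 710.3, 674.8, 775.3, 579.4 and 437.4 in (-/-) lungs at E18.5. Its term signals were 313.0, 346.7 and 232.8 in (+/+) and 312.3, 390.6 and 220.7 in (-/-) lungs. The times again did not overlap in either genotype, and here replicate I was the highest E18.5 array. Its log2 fold change was -1.10 (SE 0.28, adjusted p = 0.0124, limma) in (+/+) and -1.02 (SE 0.24, adjusted p = 0.0105, limma) in (-/-) lungs.

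Col1a1 encodes the main chain of collagen I. Probe set 94305_at measured 893.9, 818.6, 1741.3, 1548.3 and 1313.1 on the (+/+) arrays of E18.5 and 906.7, 988.5 and 902.4 on those of term. The (-/-) signals were 1300.5, 1523.1, 1614.5, 1163.4 and 1570.6 on E18.5 arrays and 1119.0, 1012.5 and 670.7 on term arrays. The times overlapped in (+/+) and not in (-/-) lungs, where the log2 fold change over time was -0.63 (SE 0.23, adjusted p = 0.0538, limma). In (+/+) lungs it was -0.37 (SE 0.31, adjusted p = 0.408, limma). The other probe set, 103709_at, measured 258.4, 719.1, 801.4, 844.6 and 600.8 in (+/+) and 374.5, 555.8, 411.3, 541.8 and 593.5 in (-/-) lungs at E18.5. At term it measured 429.1, 596.7 and 451.2 in (+/+) and 514.1, 507.4 and 457.2 in (-/-) lungs. Its times overlapped in both genotypes, with log2 fold changes of -0.29 (SE 0.35) in (+/+) and 0.01 (SE 0.21) in (-/-) lungs.

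Col6a3 encodes the longest chain of collagen VI. Its probe set 101110_at measured 1526.6, 1642.9, 3607.5, 2642.8 and 1532.1 on the (+/+) arrays of E18.5 and 828.7, 977.1 and 1045.8 on those of term. In (-/-) lungs it measured 2266.9, 2231.5, 1860.5, 1876.9 and 1829.3 on E18.5 arrays and 1178.8, 1084.4 and 1042.9 on term arrays. No term array reached an E18.5 array of its genotype, and the (+/+) arrays K and L stood above all others. The mean was 2190.4 ± 920.1 (SD, n = 5) and 951 ± 111 (SD, n = 3) in (+/+), 2.30-fold lower at term, and 2013 ± 217 (SD, n = 5) and 1102 ± 69.6 (SD, n = 3) in (-/-), 1.83-fold lower. The log2 fold change was -1.11 (SE 0.33, adjusted p = 0.0299, limma) in (+/+) and -0.86 (SE 0.19, adjusted p = 0.00746, limma) in (-/-) lungs.

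The promoters of the genes that fell are shown beside that of Col3a1, a fibrillar collagen that did not pass the test over time, to set their sequence next to their values. Each window holds the 250 bases before the RefSeq start and the 50 after it, from the assembly GRCm38.p6, read 5' to 3' along the gene. Capitals mark matches on either strand to 3 motifs. CCAAT is bound by the factor NF-Y. The GC box of Sp factors was searched as GGGCGG. The TATA box was searched as TATAAA. RefSeq windows were given for 7 of the 9 measured genes, and Col1a1 and Col5a2 were not among them.
Col1a2 promoter, chr6:4505368-4505667, plus strand: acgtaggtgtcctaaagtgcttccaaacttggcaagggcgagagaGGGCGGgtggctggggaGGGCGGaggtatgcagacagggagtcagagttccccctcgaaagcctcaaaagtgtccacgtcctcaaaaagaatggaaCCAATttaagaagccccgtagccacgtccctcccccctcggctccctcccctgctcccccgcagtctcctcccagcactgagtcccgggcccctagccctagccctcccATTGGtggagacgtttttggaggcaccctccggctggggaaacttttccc
Col6a3 promoter, chr1:90843922-90844221, minus strand: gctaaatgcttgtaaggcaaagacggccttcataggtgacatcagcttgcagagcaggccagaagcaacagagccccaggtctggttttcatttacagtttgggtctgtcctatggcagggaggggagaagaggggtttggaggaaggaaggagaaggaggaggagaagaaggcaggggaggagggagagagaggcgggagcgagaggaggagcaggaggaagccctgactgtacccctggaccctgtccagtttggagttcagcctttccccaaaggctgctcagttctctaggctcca
Col3a1 promoter, chr1:45311288-45311587, plus strand: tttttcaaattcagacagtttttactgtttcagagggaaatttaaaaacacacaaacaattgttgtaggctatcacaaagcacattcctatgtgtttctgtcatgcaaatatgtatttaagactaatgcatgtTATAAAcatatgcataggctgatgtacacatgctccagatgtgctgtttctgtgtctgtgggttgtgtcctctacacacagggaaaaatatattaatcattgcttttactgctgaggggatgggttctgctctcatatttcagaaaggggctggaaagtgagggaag
The Col1a2 window holds 2 matches to CCAAT and 2 to GGGCGG. Col6a3 holds none of the 3 motifs in its window, and Col3a1 holds 1 match to TATAAA. Among 32851 RefSeq promoter windows of this length, 37.4% hold a CCAAT match, 35.7% a GGGCGG match and 13.6% a TATAAA match. The windows of Col6a1 hold no match either, and those of Col5a1, Serpinh1 and Col6a2 hold GGGCGG matches only. Since the Col6a3 window holds none of these 3 motifs, it could share none with Col1a2 or any other gene. Whether the 2 genes that fell are regulated alike was not tested.

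Collagen III is a fibrillar partner of collagen I in the fetal interstitium. The brightest of its 3 probe sets, Col3a1 98331_at, measured 441.2, 554.7, 684.2, 433.2 and 612.3 in (+/+) and 492.6, 518.9, 500.1, 593.6 and 672.7 in (-/-) lungs at E18.5. Term signals were 460.9, 687.1 and 586.5 in (+/+) and 689.9, 460.5 and 494.4 in (-/-) lungs. All 4 groups overlapped, with means from 545 to 578. The dimmer Col3a1 probe sets ranged from 50 to 127.8 (102990_at) and from 75.3 to 206.9 (161984_f_at, whose suffix marks probes shared by a family of sequences). The latter was lower on all 3 (-/-) than on all 3 (+/+) arrays at term, 98.2 to 112.2 against 114.0 to 206.9, with a log2 fold change of -0.42 (SE 0.25) and an exact permutation p of 0.1, the smallest that 3 arrays against 3 allow. The other Col3a1 probe sets overlapped there.

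Col5a1 and Col5a2 encode chains of collagen V, and Col5a2 lies beside Col3a1 on the chromosome. Col5a1 93472_at measured 261.8, 263.8, 244.5, 345.0 and 353.4 in (-/-) and 238.6, 199.6, 230.6, 223.1 and 240.4 in (+/+) lungs at E18.5. No (-/-) array overlapped a (+/+) array, and the (+/+) arrays lay close together. The means were 294 ± 51.3 (SD, n = 5) and 226 ± 16.5 (SD, n = 5), 1.30-fold higher in (-/-), and the exact permutation p was 0.00794, the smallest that 5 arrays against 5 allow. In limma the log2 fold change was 0.34 (95% interval -0.03 to 0.72, unadjusted p = 0.0724), and the adjusted p was 0.858, so it did not pass. The SD of the (+/+) group, 0.10 on the log2 scale, was at the percentile of 0.805 among the SDs of all probe sets ranked. The study also picked this probe set from these same arrays, so its direction here is no independent evidence. At term the same probe set measured 264.2, 263.8 and 223.2 in (-/-) and 229.3, 300.6 and 275.7 in (+/+) lungs, which overlapped. The other Col5a1 probe set, 101080_at, overlapped at both times, with 114.2 to 152.5 in (-/-) and 88.4 to 183.2 in (+/+) lungs at E18.5.

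Col5a2 92567_at measured 321.9, 204.9, 363.0, 346.1 and 440.0 in (-/-) and 322.2, 407.9, 395.6, 450.0 and 512.5 in (+/+) lungs at E18.5. The groups overlapped, and the log2 fold change was -0.33 (95% interval -0.78 to 0.13). It thus had the opposite sign to that of its partner Col5a1 93472_at, and neither passed the adjusted test. At term Col5a2 measured 528.5, 364.8 and 329.1 in (-/-) and 426.1, 382.1 and 411.1 in (+/+) lungs, with means of 407 ± 106 and 406 ± 22.4 (SD, n = 3).

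Col6a1 and Col6a2 encode the short chains of collagen VI and are neighbours on the chromosome. Col6a1 95493_at measured 1653.3, 2033.6, 1661.0, 1496.0 and 1572.6 in (-/-) and 916.4, 935.7, 1632.1, 2155.0 and 1279.5 in (+/+) lungs at E18.5. At term it measured 1824.9, 1344.4 and 2246.4 in (-/-) and 1339.4, 1035.0 and 1878.1 in (+/+) lungs. The groups overlapped at both times and within both genotypes over time. The other Col6a1 probe set, 162459_f_at, measured 283.3, 303.4, 221.5, 251.0 and 283.1 in (-/-) and 185.5, 114.6, 191.1, 243.7 and 238.4 in (+/+) lungs at E18.5. Term arrays had 358.1, 224.5 and 567.3 in (-/-) and 355.1, 308.4 and 500.2 in (+/+) lungs. In (+/+) lungs the times did not overlap and the probe set rose, with a mean 1.99-fold higher at term and a log2 fold change of 0.95 (SE 0.28, adjusted p = 0.0298, limma). The times overlapped in (-/-) lungs, with a log2 fold change of 0.40 (SE 0.26, adjusted p = 0.263, limma).

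Between the genotypes at E18.5, 162459_f_at averaged 268 ± 32.3 (SD, n = 5) on (-/-) arrays, against 195 ± 52.0 (SD, n = 5) on (+/+) arrays. The groups overlapped, the log2 fold change was 0.47 (95% interval 0.02 to 0.91, unadjusted p = 0.0401, limma) and the exact permutation p was 0.0317. After adjustment over all probe sets the limma p was 0.858. Col6a1 is among the genes that the study picked from these same arrays, so this is no independent evidence of its direction. For Col6a1 95493_at the log2 fold change was 0.35 (95% interval -0.17 to 0.87) at E18.5 and 0.36 (-0.30 to 1.01) at term.

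Col6a2 93517_at measured 983.1, 965.7, 1100.1, 668.5 and 1017.4 in (-/-) and 728.7, 553.2, 895.3, 1552.8 and 689.7 in (+/+) lungs at E18.5. At term it measured 946.7, 1255.1 and 903.5 in (-/-) and 1233.3, 1058.7 and 773.2 in (+/+) lungs. All groups overlapped, and its log2 fold changes in the 4 pairwise comparisons lay between 0.03 (genotypes at term) and 0.27 (over time in (+/+) lungs). Serpinh1 94817_at, the probe set of the chaperone, measured 749.9, 466.9, 717.8, 841.9 and 871.8 in (-/-) and 422.1, 736.7, 797.7, 627.3 and 840.5 in (+/+) lungs at E18.5. Its term arrays had 623.9, 936.1 and 871.9 in (-/-) and 375.1, 1074.0 and 935.0 in (+/+) lungs. Its groups overlapped as well, and at term replicate N was far below the other (+/+) arrays. The spread of that group, an SD of 0.80 on the log2 scale, was at the percentile of 95.3 among the probe sets ranked.

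**Figure D2:**
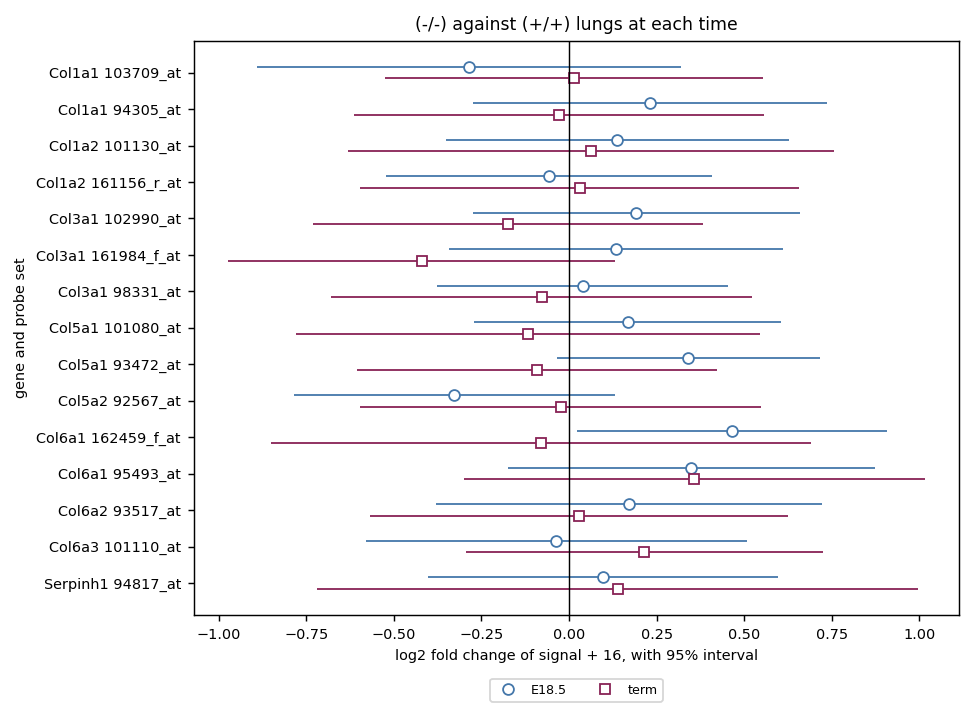
Log2 fold change of signal + 16 of (-/-) against (+/+) lungs for each of the 15 probe sets (horizontal axis, with the 95% interval from limma), at E18.5 (circles, 5 arrays against 5) and at term (squares, 3 against 3). No probe set passed the adjusted test, and the interval of 1 of them, Col6a1 162459_f_at at E18.5, leaves out 0.

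Over all members, 0 of 15 probe sets differed between the genotypes at E18.5 at an adjusted p under 0.05 in limma, where 0.034% of the 5879 probe sets tested did. At an unadjusted p under 0.05 the count was 1 of 15, beside 5.31% of all, and 1 of 15 had groups without overlap, beside 1.14%. The methods' t-test called 2 of 15 at an unadjusted p under 0.05, Col5a1 93472_at and Col6a1 162459_f_at, beside 5.8% of all, and 0 after adjustment. Of the log2 fold changes, 11 were above and 4 below 0, with a median of 0.14 against 0.04 over all probe sets tested. At term 0 of 15 passed, where 0% of 5885 did, and 0 of 15 had an unadjusted p under 0.05 (0.68% of all), as in the methods' t-test (1.34% of all). One of 15 had groups without overlap, Col3a1 161984_f_at, beside 3.31% of all. The log2 fold changes at term ran from -0.42 to 0.36, with a median of -0.02 against 0.01 over all. The 95% intervals reached from -0.89 to 0.91 at E18.5 and from -0.97 to 1.01 at term, so differences of up to these sizes lay within the error of this number of arrays.

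The effect of genotype at term minus that at E18.5 was tested directly in 1 fit of the 16 arrays. None of the 15 probe sets passed, where 0% of the 6458 tested did, and 0 had an unadjusted p under 0.05, beside 1.47% of all, in limma. The differences ran from -0.55 (Col3a1 161984_f_at and Col6a1 162459_f_at) to 0.30 (Col1a1 103709_at and Col5a2). This is also the test of whether the change over time differs between the genotypes, so the calls of Col6a1 162459_f_at in (+/+) and not in (-/-) lungs are not shown to differ (difference -0.55, SE 0.39, adjusted p = 0.9997, limma).

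**Figure D3:**
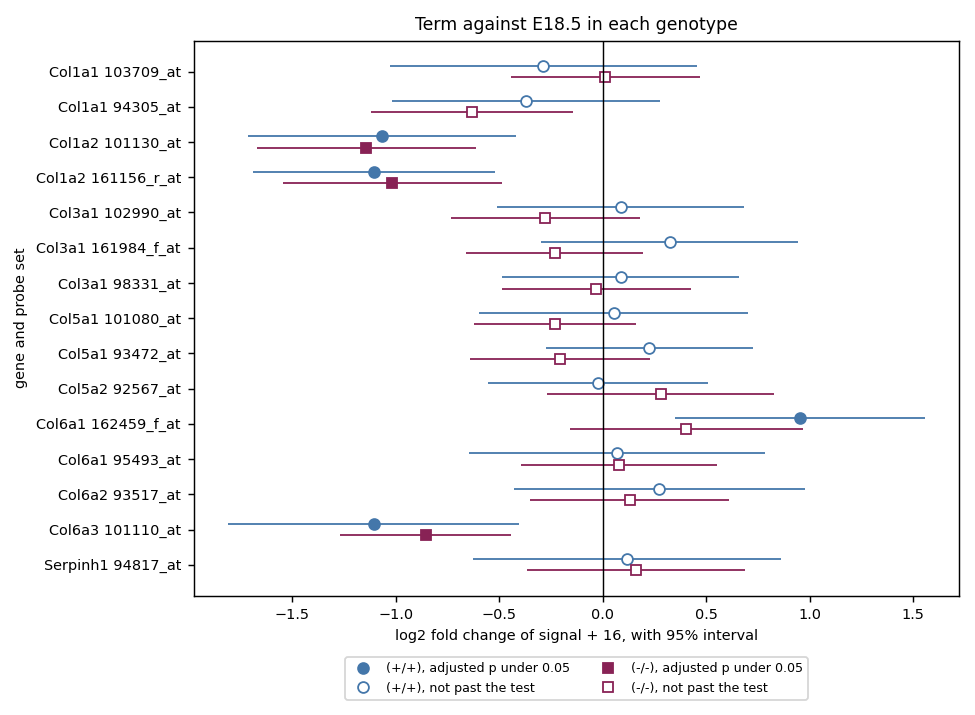
Log2 fold change of signal + 16 at term against E18.5 for each of the 15 probe sets (horizontal axis, with the 95% interval from limma) in (+/+) lungs (circles) and (-/-) lungs (squares), 3 arrays against 5 in each. Filled symbols, those past the adjusted test, are both Col1a2 probe sets and Col6a3 on the lower side in both genotypes and Col6a1 162459_f_at on the higher side in (+/+) lungs.

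Over time in (+/+) lungs, 4 of 15 probe sets passed the test in limma, where 18.6% of the 6145 tested did. Those that fell were 3 of 15, beside 7.99% of all, and 1 rose, beside 10.6%. With each array centered on its median, 1 fell (Col1a2 161156_r_at) and 1 rose (Col6a1 162459_f_at). In (-/-) lungs 3 of 15 passed, all lower, where 26.7% of the 6193 tested passed, 13% lower and 13.8% higher. Groups without overlap numbered 4 of 15 in (+/+) (24.4% of all) and 4 of 15 in (-/-) lungs (30.6% of all), so the members' counts of 4 and 3 in either direction lay near the background. The median log2 fold change of the members was 0.07 in (+/+) and -0.21 in (-/-) lungs, against -0.04 and -0.06 over all. In whole lung, fewer cells of a type and less RNA per cell cannot be told apart. Of the other fibrillar probe sets, those of Col3a1, Col5a1 and Col5a2 had log2 fold changes of -0.28 to 0.32, and none passed.

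Some (+/+) calls were lost when single arrays were left out, while the log2 fold changes kept their direction. Without term replicate N, 0 of the 4 passed (adjusted p of 0.0556 to 0.158, limma). Their log2 fold changes were then -0.89 for Col1a2 101130_at, -1.15 for 161156_r_at, -1.01 for Col6a3 and 0.999 for Col6a1 162459_f_at. Without E18.5 replicate L or term replicate O, 2 passed, and the lost ones, Col1a2 101130_at (-0.99 and -1.10) and Col6a3 (-1.02 and -1.13), kept log2 fold changes near those with all arrays. The call of Col6a1 162459_f_at was also lost without J (0.79) or P (0.76). With Xist, a gene of female cells, as a covariate 0 passed, with log2 fold changes of -0.99 for Col1a2 101130_at, -1.25 for 161156_r_at, -1.19 for Col6a3 and 1.38 for Col6a1 162459_f_at. Xist measured 14.3 to 80 on the (+/+) arrays at E18.5 and 6.7 to 10.2 at term, so its levels did not overlap between the times. In (-/-) lungs the calls of Col1a2 101130_at and Col6a3 were kept when any array was left out, and that of Col1a2 161156_r_at was lost without H (-0.81, adjusted p = 0.0509, limma).

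Markers of several cell types moved over the same days. Epithelial markers, with 7 of 8 genes measured, summed to 17098 to 30992 in (+/+) and 21974 to 34103 in (-/-) lungs at E18.5, and to 12948 to 14499 and 13578 to 17428 at term. The surfactant genes Sftpc (log2 fold change -1.45 in both genotypes) and Sftpb (-1.14 and -1.23) fell, and Scgb1a1, the secretory protein of club cells, rose (1.33 and 0.77). Of the 7 epithelial genes tested over time, 3 had log2 fold changes above and 4 below 0 in each genotype. Their medians were -0.0025 in (+/+) and -0.073 in (-/-) lungs, against -0.044 and -0.063 over all, so the lower sums are not a fall of the list as a whole. Mesenchymal markers (9 of 10 measured) summed to 2729 to 3778 in (+/+) and 3358 to 4367 in (-/-) lungs at E18.5, and to 2706 to 3461 and 2864 to 3606 at term. Of these, Foxf1, a transcription factor of lung mesenchyme, rose in (+/+) lungs (1.41), and in (-/-) lungs Pdgfra rose (1.09) and Mfap4 fell (-0.77). Among the 6 mesenchymal genes tested over time, 3 had log2 fold changes above and 3 below 0 in each genotype.

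Smooth muscle markers (5 of 5 measured) summed to 1140 to 2422 in (+/+) and 960 to 2789 in (-/-) lungs at E18.5, and to 783 to 1292 and 646 to 980 at term. Myh11, the smooth muscle myosin, fell in (+/+) lungs (-1.29), and Actg2, an actin of visceral muscle, fell in (-/-) lungs (-1.35). All smooth muscle genes tested over time had log2 fold changes below 0, 4 in (+/+) and 5 in (-/-) lungs. Their medians were -0.73 and -0.84, against -0.044 and -0.063 over all, though only 1 gene passed in each genotype. Cartilage and bone markers (4 of 8 measured) summed to 66.3 to 195.4 at E18.5 and to 42.8 to 107.4 at term. Of endothelial markers (6 of 6), Cdh5 rose (1.05 and 0.72), and of erythroid markers (2 of 4), Hba-a1 fell (-1.52 and -1.48) and Alas2 fell in (-/-) lungs (-1.52). Liver markers (4 of 4), of which at most 1 passed the filter in a comparison, summed to 65.7 to 202.2 at E18.5 and 36.4 to 105.9 at term, and leukocyte markers (4 of 4) to 339.2 to 2216.9 and 1487 to 2708, with no call in either list. No marker was at 0 on every array of a group.

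Heart and skeletal muscle markers (6 of 6) had no call either, but single arrays stood apart. Their sum was 16878 on (+/+) E18.5 replicate M, against 526.5 to 852.1 on the other 4 arrays of that group. It was 3709.4 on replicate E, against 654.1 to 1301 on the other (-/-) E18.5 arrays, and 5504.5 on F, against 512.1 and 832.1 on the other (-/-) term arrays. In (+/+) lungs at term it was 705.2, 3761.3 and 3301 on N, O and P. Myl2, the light chain of ventricular myosin, measured 7514.4 on M. Without M the same 4 probe sets passed over time in (+/+) lungs, with log2 fold changes of -1.06 for Col1a2 101130_at, -1.18 for 161156_r_at, -1.21 for Col6a3 and 1.03 for Col6a1 162459_f_at. Without E or without F the 3 calls in (-/-) lungs were kept, and without M, E or F 0 of 15 passed between the genotypes. None of the marker genes passed between genotypes or in the difference of genotype effects, so a marker called over time in 1 genotype only is not shown to differ. The part of these cells in the collagen changes was not tested.

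Other genes of the collagen pathway were taken from lists of processing enzymes, fibril partners and receptors. Of 21 collagen enzymes, 14 had a probe set and 13 were tested. In (+/+) lungs 2 rose and 2 fell over time, where 10.6% of all probe sets tested rose and 7.99% fell. In (-/-) lungs 2 rose and 4 fell, where 13.8% of all rose and 13% fell. Lox, the lysyl oxidase that cross-links fibrils, rose in both genotypes, from 350 ± 127 (SD, n = 5) to 682 ± 214 (SD, n = 3) in (+/+) and from 262 ± 51.3 to 634 ± 99.7 in (-/-) lungs, with log2 fold changes of 0.97 (adjusted p = 0.0493, limma) and 1.23 (adjusted p = 0.00228, limma). Pcolce, which speeds the removal of the end domain of procollagens, fell in both, by 1.11 and 1.22 on the log2 scale. Ppib, a prolyl isomerase that helps collagen fold, fell as well, by 1.03 and 1.55. Pdia3, a disulfide isomerase, rose in (+/+) lungs (1.04), against 0.88 (adjusted p = 0.0521, limma) in (-/-) lungs. P4ha1, a subunit of prolyl 4-hydroxylase, rose in (-/-) lungs (1.28), against 1.38 (adjusted p = 0.0504, limma) in (+/+) lungs. Plod3 (-0.71) and P3h3 (-0.69), both tied to lysine modification, fell in (-/-) lungs. In (+/+) lungs they changed by -0.71 (adjusted p = 0.0645, limma) and -0.48 (adjusted p = 0.213, limma). No collagen enzyme passed in the difference of genotype effects, where 0% of all probe sets did. Thus Lox rose over the days in which Col1a2 fell, and Pcolce and Ppib fell with it. In (+/+) lungs the adjusted p of Ppib was 0.0430 (limma). The enzyme calls were not run under the alternatives given below.

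Of 22 fibril partners, 19 had a probe set. In (+/+) lungs 1 of 13 tested passed over time, where 18.6% of all probe sets did. It was Col9a1, a fibril-associated collagen of cartilage, which fell (-0.96). In (-/-) lungs 3 of 12 passed, near the 26.7% of all: Col9a1 (-0.74) and the proteoglycan Bgn (-0.73) fell, and the proteoglycan Ogn rose (0.63). Of 10 collagen receptors, 5 had a probe set and 4 were tested over time. Ddr2, a receptor tyrosine kinase for fibrillar collagen, fell in (-/-) lungs (-0.89, adjusted p = 0.0118, limma). It was 1 of 4 there, beside the same 26.7% of all, and 0 of 4 passed in (+/+) lungs. No gene of the 3 lists passed between the genotypes at E18.5 or at term, or in the difference of genotype effects. A call over time in 1 genotype only is therefore not shown to differ from the other genotype.

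**Figure D4:**
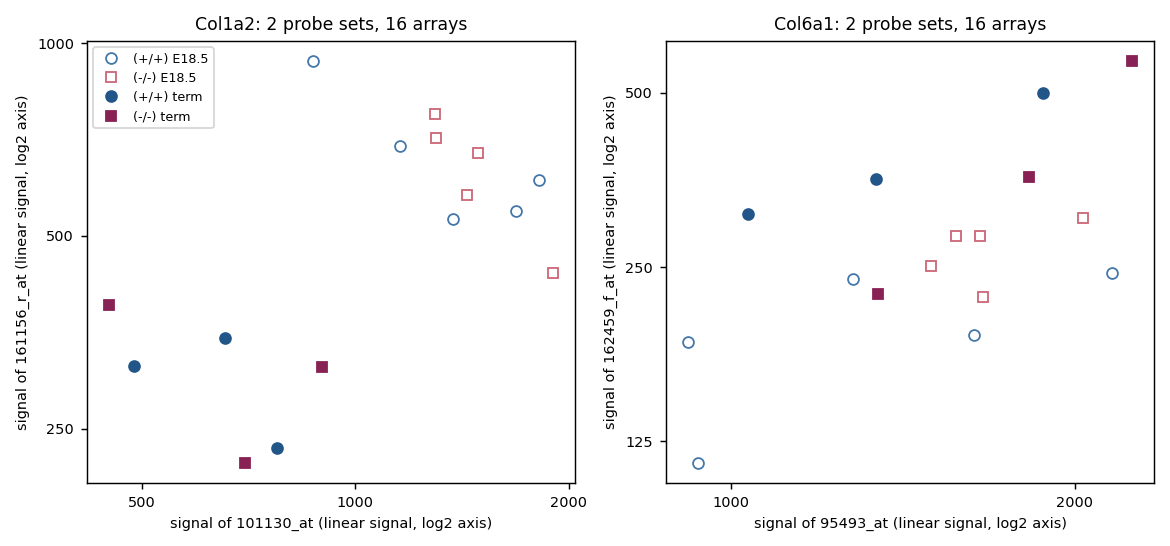
Signals of both probe sets of Col1a2 (left) and of Col6a1 (right) on each of the 16 arrays, on log2 axes, with circles for (+/+) and squares for (-/-) lungs, open at E18.5 and filled at term. Col1a2 falls on both axes at term while points within a group slope downward, and Col6a1 points slope upward within groups with the (+/+) term arrays above the (+/+) E18.5 arrays at like values of 95493_at.

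Probe sets of the same gene were set against each other as the log2 ratio within each array, over 7 pairs from 5 genes and 28 unadjusted tests. One of the 28 had an exact permutation p under 0.05, a count near that which chance gives at this threshold. Those of 3 arrays against 3 cannot go below 0.1. The ratio of Col6a1 162459_f_at to 95493_at was higher at term than at E18.5 in (+/+) lungs by 0.88 (SE 0.18, exact permutation p = 0.0357), with no overlap. The same difference was 0.33 (SE 0.18, exact permutation p = 0.107) in (-/-) lungs. At term the ratio was lower in (-/-) than in (+/+) lungs by 0.44 with no overlap, at the smallest exact permutation p that the arrays allow, 0.1. For Col1a1, the ratio of 103709_at to 94305_at differed by -0.52 between the genotypes at E18.5 (exact permutation p = 0.135), since the probe sets had log2 fold changes of opposite sign, -0.29 and 0.23. Without any 1 of its 5 E18.5 arrays, the Col6a1 difference over time in (+/+) lungs was 0.79 to 1.004 with an exact permutation p of 0.0571, where 3 arrays against 4 cannot go below 0.0286. The count of 1 became 0 without J, K, L or M, and 2 without (-/-) replicate D or G.

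Within groups, the 2 probe sets of Col1a2 had a correlation of -0.72 over the 16 arrays once group means were taken away, a description over arrays that share their scaling. Those of Col6a1 had 0.75, those of Col5a1 0.55, those of Col1a1 0.49 and those of Col3a1 0.36 to 0.60. Replicate I shows the pattern of Col1a2, as the lowest (+/+) E18.5 array on 101130_at and the highest on 161156_r_at. Yet the ratio of the Col1a2 probe sets differed little over time, by 0.04 (SE 0.45) in (+/+) and -0.13 (SE 0.51) in (-/-) lungs.

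Arrays of the (+/+) E18.5 group spread widely in several members at once. With 1 probe set per gene, the mean deviation from the group mean over the 9 genes was 0.31 on replicate K and 0.26 on L, and -0.37 on I and -0.24 on J, in log2 units. For Col1a1, Col1a2 and Col6a3 together it was 0.59 on K, 0.35 on L, -0.36 on J and -0.49 on I. Array I was also the one with the high bacterial controls. Within groups, Col3a1 with Col1a2 (r = 0.67), Col6a1 with Col1a2 (0.66), Col6a3 with Col1a1 (0.65) and Col6a2 with Col1a1 (0.64) moved most alike over the 16 arrays, and Col6a2 with Col3a1 least (-0.39).

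Among 6458 probe sets ranked, those most like the mean of Col1a1, Col1a2 and Col3a1 within groups were Fbln1 94309_g_at (r = 0.79), which encodes a matrix glycoprotein, Igf2 98623_g_at (0.79), the fetal growth factor, and Col18a1 101881_g_at (0.78), a basement membrane collagen. Crat (0.75), an acyltransferase of carnitine, and Smpd1 (0.75), the acid sphingomyelinase, followed. The correlations are over the same 16 arrays, which share the spread of replicates I to L.

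As a measure of the epithelial against the mesenchymal share, the keratins Krt8 and Krt18 were set over each Col1a1 probe set on the same array. One of the Krt18 probe sets, 162191_at, measured 0.3 to 14.4 on the 16 arrays, under the filter on low signals, so no difference is given for it. For Krt8 101009_at and Krt18 94270_at, 0 of 4 exact permutation tests between the genotypes at E18.5 had a p under 0.05. The 4 tests at term, of 3 arrays against 3, cannot go below 0.1 and so could not pass. At E18.5 the log2 ratio of Krt8 differed by 0.43 over 103709_at and by -0.09 over 94305_at, and that of Krt18 by 0.60 and 0.08 (lowest exact permutation p = 0.183). The differences at term were -0.03 to 0.10 (lowest exact permutation p = 0.9). Without (+/+) E18.5 replicate I, 0 of the 4 tests at E18.5 had an exact permutation p under 0.05 (lowest 0.0873).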

How the data were processed

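Whole lung RNA of both genotypes was hybridized to 16 Affymetrix Murine Genome U74Av2 arrays. The authors made the deposited signal intensity values with Microarray Suite 5.0 and scaled each array, and detection calls were not used here. Replicates were grouped by genotype and time from the labels. Probe sets were named by the platform's annotation, which gave 1 symbol to 10833 of them, several to 396 and none to 1193, with 66 controls left out. The members and gene lists were chosen with earlier results of these data known.

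Signals were used as log2(signal + 16). Probe sets entered a fit where 1 or more group medians exceeded a level of 47.7 to 53.4, set from the study's mean share of present calls, which left 5879 to 6458. The fits used limma 3.58.1 (lmFit, then eBayes with trend) in R 4.3.3, with Benjamini-Hochberg adjustment over all probe sets tested and a threshold of 0.05. Single values and ratios were compared with 2-sided exact permutation tests in Python 3.11.15 (scipy 1.17.1) and plotted with matplotlib 3.10.9. The fits of the 4 pairwise comparisons were tested on simulated data. The fit of all 16 arrays for the difference of genotype effects and the alternatives were not. All members are named. Of each other list up to 4 genes with the lowest p are named, and the 5 probe sets most like collagens I and III; P3h3 and Plod3 fall outside that rule and were named after their values were seen. Of several probe sets of a listed gene the brightest was used. Alternatives were quantile normalization, median centering, other pseudocounts and filters, all arrays in 1 fit, no trend, array weights, the methods' t-test, Xist or the GAPDH ratio as covariate, and leaving out each array. Applying them to the further probe sets that passed was chosen after seeing the data. The number of arrays limits the precision.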

Additional observations from a re-analysis of the deposited data

Results flagged for a closer look

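Among 30 groups of 5 arrays tested for a single array far from the rest, 1 was found, where chance gives about 1 in 20. On Col5a1 101080_at in (-/-) lungs at E18.5, replicate C measured 114.2 and the next lowest array 142.1, a gap of 0.728 of the range of the group.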

How the results depend on the processing

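Over time in (-/-) lungs, the calls of Col1a2 101130_at and Col6a3 held under every alternative run, and that of Col1a2 161156_r_at under all but the methods' t-test (adjusted p = 0.0521) and leaving out replicate H. Col1a1 94305_at passed there under quantile normalization, the stricter filter, the GAPDH covariate and without replicate D. In (+/+) lungs the count of 4 was 2 under median centering, 0 under the methods' t-test, 0 with Xist as covariate and 0 to 4 with single arrays left out. The log2 fold changes of the lost calls were -0.93 (Col1a2 101130_at) and -0.97 (Col6a3) under median centering, and -1.11 (Col1a2 101130_at), -1.16 (161156_r_at), -1.20 (Col6a3) and 0.99 (Col6a1 162459_f_at) under the methods' t-test. Single calls there were also lost for Col1a2 101130_at with the GAPDH covariate (log2 fold change -1.10, adjusted p = 0.0581, limma) and for Col6a3 with no filter (-1.11, adjusted p = 0.0605, limma). Median centering adds 0.14 to each log2 fold change over time in (+/+) and 0.11 in (-/-) lungs, and its 2 calls in (+/+) were 1 higher and 1 lower. The count between the genotypes stayed at 0 under all alternatives. The count of differing probe set pairs was 2 under quantile normalization and 0 to 2 with single arrays left out, and that of keratin to Col1a1 ratios was 0 to 1, the 1 resting on the Krt18 probe set under the filter.

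All changes of sign concern differences that did not pass, and their cause was not tested. The sign turned under the GAPDH ratio as covariate for Col1a1 (0.0016) and Col1a2 (-0.011) between the genotypes at term, Col3a1 (0.018) over time in (-/-), Col5a2 (0.0011) over time in (+/+) and Col6a1 (-0.029) in the difference of genotype effects. It turned under Xist as covariate for Col3a1 (0.027), Col5a2 (0.058), Col6a2 (-0.099) and Serpinh1 (-0.032) between the genotypes at term, Col3a1 (-0.16) and Col5a2 (0.085) over time in (+/+) and Col6a1 (-0.026) in the difference of genotype effects. It turned under array weights for Col1a1 (0.026), Col3a1 (0.021), Col5a2 (0.096) and Col6a2 (-0.095) between the genotypes at term, Col1a2 (0.22) in the difference of genotype effects, Col3a1 (0.094) and Serpinh1 (-0.048) over time in (-/-) and Col6a1 (-0.13) and Serpinh1 (-0.044) over time in (+/+). It turned under median centering for Col3a1 (0.075) over time in (-/-), Col5a2 (0.12) over time in (+/+), Col6a1 (-0.027) in the difference of genotype effects and Col6a3 (0.013) between the genotypes at E18.5. It turned under quantile normalization for Col3a1 (-0.011) between the genotypes at E18.5, Col3a1 (-0.0049) over time in (+/+) and Col6a2 (-0.0037) between the genotypes at term. It turned under the methods' t-test for Col1a1 (0.0024) and Col5a2 (0.0037) between the genotypes at term.

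With single arrays left out, the log2 fold changes of the following members took both signs. Between the genotypes at E18.5 the ranges were -0.014 to 0.25 for Col1a2, -0.036 to 0.12 for Col3a1, -0.063 to 0.25 for Serpinh1 and -0.14 to 0.17 for Col6a3. In the difference of genotype effects the ranges were -0.30 to 0.19 for Col1a2, -0.19 to 0.23 for Col6a1, -0.42 to 0.32 for Serpinh1, -0.37 to 0.0042 for Col6a2 and -0.29 to 0.014 for Col3a1. Over time in (+/+) the ranges were -0.15 to 0.27 for Col6a1, -0.16 to 0.58 for Serpinh1, -0.11 to 0.052 for Col5a2 and -0.044 to 0.24 for Col3a1. Between the genotypes at term the ranges were -0.16 to 0.33 for Col1a2, -0.22 to 0.11 for Col5a2, -0.32 to 0.42 for Serpinh1, -0.17 to 0.19 for Col1a1, -0.25 to 0.052 for Col3a1 and -0.16 to 0.18 for Col6a2. Over time in (-/-) the ranges were -0.20 to 0.081 for Col3a1, -0.014 to 0.22 for Col6a2 and -0.095 to 0.27 for Col6a1. No paired analysis was possible because the replicate letters are not shared between groups. With 5 arrays against 5, 3 against 3 and 3 against 5, the exact permutation p cannot go below 0.00794, 0.1 and 0.0179. On replicate I the bacterial controls measured 35.3 and Col3a1 102990_at 50. If these controls were not added, the dimmest probe sets had little room above background there.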
